A study of Mus musculus with 6 samples.

Results

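The 10 genes described here belong to the smooth-muscle-type contractile apparatus and were followed through the culture of limb mesenchyme. They are the actins *Acta2* and *Actg2*, the tropomyosins *Tpm1* and *Tpm2*, the actin-binding proteins *Tagln*, *Cnn1* and *Cnn2*, the myosin chains *Myl9* and *Myh11*, and the leiomodin *Lmod1*. They were chosen by symbol, and all 10 were found among the 32286 genes of the count matrices. The counts came from single-cell RNA sequencing of digits in a dish (DID) cultures, which were seeded with dissociated distal forelimb mesenchyme pooled from E11.5 CD-1 mouse embryos. Cultures were taken at Day 2, Day 7 and Day 10, and 2 independent cultures per day gave the libraries called replicates A and B. No treatment or genotype was compared. The days are separate cultures and libraries with their own quality limits and depths, so days of culture and these differences cannot be told apart, and each library holds every cell type that grew in its dish.

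Contractile cells of vessels and viscera slide thick filaments of smooth muscle myosin along thin filaments built from α-smooth muscle actin (*Acta2*) or γ-smooth muscle actin (*Actg2*). Tropomyosins, calponins and transgelin lie on the thin filament, leiomodin nucleates it, and the regulatory light chain *Myl9* switches the motor on when it is phosphorylated. Most of these genes are targets of serum response factor (SRF), which binds the CArG box in their promoters together with myocardin or with the actin-sensing cofactors MRTF-A and MRTF-B. *Acta2*, *Tagln*, *Cnn1*, *Tpm1* and *Tpm2* are also made by myofibroblasts and by mesenchymal cells on stiff substrates in serum, whereas *Myh11* is regarded as the most restricted marker of differentiated smooth muscle.

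The CArG boxes are shown because they are the element through which SRF is known to reach these genes. A box is CC, then 6 bases that are A or T, then GG, and it reads as a box on either strand. The 250 bases before the start of transcription were searched in the RefSeq promoter windows (GRCm38.p6), which held 7 of the 10 genes and lacked *Tagln*, *Actg2* and *Myh11*. A full box stood before *Myl9* and *Cnn2*, 2 of 7 genes, against 1.47% of the 32851 windows of all genes. With 1 of the 6 middle bases allowed to be G or C, 3 of 7 genes had a match, against 8.59% of windows, and the addition was *Acta2*. Capitals mark the matches. The *Myl9* stretch lies at chr2:156775278-156775399 on the plus strand, with a full box that begins 161 bases before the start and a second match, with 1 base off, that begins 99 bases before it. The *Cnn2* stretch lies at chr10:79988519-79988578 on the plus strand, and its box begins 56 bases before the start. The *Acta2* matches lie on the minus strand at chr19:34255438-34255467 and chr19:34255388-34255417 and begin 84 and 34 bases before the RefSeq start. GENCODE vM21 places the start of *Acta2* farther upstream, and all 109 bases of the window that held both matches lie in a GENCODE exon, against 0 bases of the *Myl9* and *Cnn2* stretches. A match is a description of letters, not of binding.
Myl9: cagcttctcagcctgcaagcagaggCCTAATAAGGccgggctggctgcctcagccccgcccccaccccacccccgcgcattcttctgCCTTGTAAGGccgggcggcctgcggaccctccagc
Cnn2: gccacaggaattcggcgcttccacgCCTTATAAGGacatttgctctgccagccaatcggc
Acta2, far match: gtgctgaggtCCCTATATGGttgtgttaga
Acta2, near match: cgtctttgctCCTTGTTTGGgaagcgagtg

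In GENCODE vM21 (GRCm38) the genes are spread over the genome. *Acta2* (ENSMUSG00000035783) lies at chr19:34241090-34255590 on the minus strand, *Actg2* (ENSMUSG00000059430) at chr6:83512905-83536265 on the minus strand, and *Tpm2* (ENSMUSG00000028464) at chr4:43514711-43523765 on the minus strand. *Tpm1* (ENSMUSG00000032366), *Tagln* (ENSMUSG00000032085) and *Cnn1* (ENSMUSG00000001349) share chromosome 9, at 67022590-67049406, 45929619-45936058 and 22099216-22109630. *Cnn2* (ENSMUSG00000004665) lies at chr10:79988584-79996062, *Myl9* (ENSMUSG00000067818) at chr2:156775420-156781658, *Myh11* (ENSMUSG00000018830) at chr16:14194535-14291372, and *Lmod1* (ENSMUSG00000048096) at chr1:135324807-135368065. Exons of *Tagln* overlap those of *Pcsk7* over 108 bases and of *Gm48529* over 1241 bases, both on the other strand. *Pcsk7* had 2835 to 3789 UMIs and *Gm48529* had 364 to 570 UMIs per library, against 237151 to 435454 for *Tagln*. Whether reads of the 3 genes were counted apart where they overlap is not known here, since the sources used do not give the strand setting.

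After the quality limits of the study, 9448 and 16486 cells remained in Day 2 replicates A and B, then 13485 and 12346 at Day 7, then 10385 and 9949 at Day 10, with 178022112 to 260245417 UMIs per library. Day 2 replicate B stood apart in depth, with a median of 3871 UMIs per cell against 18587 in its partner and 8062 to 24197 in the other libraries. Any pair of libraries shared 24 to 67 cell barcodes, at most 0.543% of the smaller library, and doublets were not removed. Levels below are TMM-scaled CPM, the UMIs of a gene per 1000000 UMIs summed over the cells of a library, so fewer cells of a type and less RNA per cell cannot be told apart in them. Where a class of cells is described, CPM refer to the summed UMIs of that class in a library, with no TMM factor. Each UMI is a tag of a 3′ end, and levels are compared between days for a gene, not between genes.

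Between Day 2 and Day 7 the 10 genes split. *Actg2*, *Tpm2* and *Lmod1* rose, *Tagln*, *Cnn2*, *Myl9*, *Myh11* and *Tpm1* fell, and *Acta2* and *Cnn1* did not pass the test (edgeR quasi-likelihood test, Benjamini-Hochberg adjusted p under 0.05). The 3 higher and 5 lower genes of 10 stood beside 35.7% of all 18987 genes called higher and 34.6% called lower, so the share that changed was near that of genes in general. With all deposited barcodes 3 were lower, since *Tagln* and *Myh11* did not pass, and with a library left out 4 to 6 were lower. *Tagln* did not pass without Day 7 replicate A, nor *Myh11* without Day 2 replicate A or Day 7 replicate B. *Acta2* took either sign with a library left out, with log2 fold changes from -0.23, without Day 2 replicate B, to 0.20. Between Day 7 and Day 10, 7 of 10 rose, beside 26.3% of all genes higher and 25.9% lower. None fell by edgeR, at an unadjusted p under 0.05 or by DESeq2 (0 of 10 each), and all 10 log2 fold changes were above 0. From Day 2 to Day 10, 7 of 10 were higher and 2 lower, beside 39% and 38.2% of all genes. With a library left out, 5 to 7 were higher, the fewest without Day 10 replicate A, where *Tagln* and *Cnn1* did not pass. The median log2 fold changes of the 10 genes were -0.15, 0.54 and 0.24 in these comparisons, and those of all genes were 0.01, -0.02 and 0.00. The 3 comparisons share libraries and are not independent of each other.

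**Figure D1:**
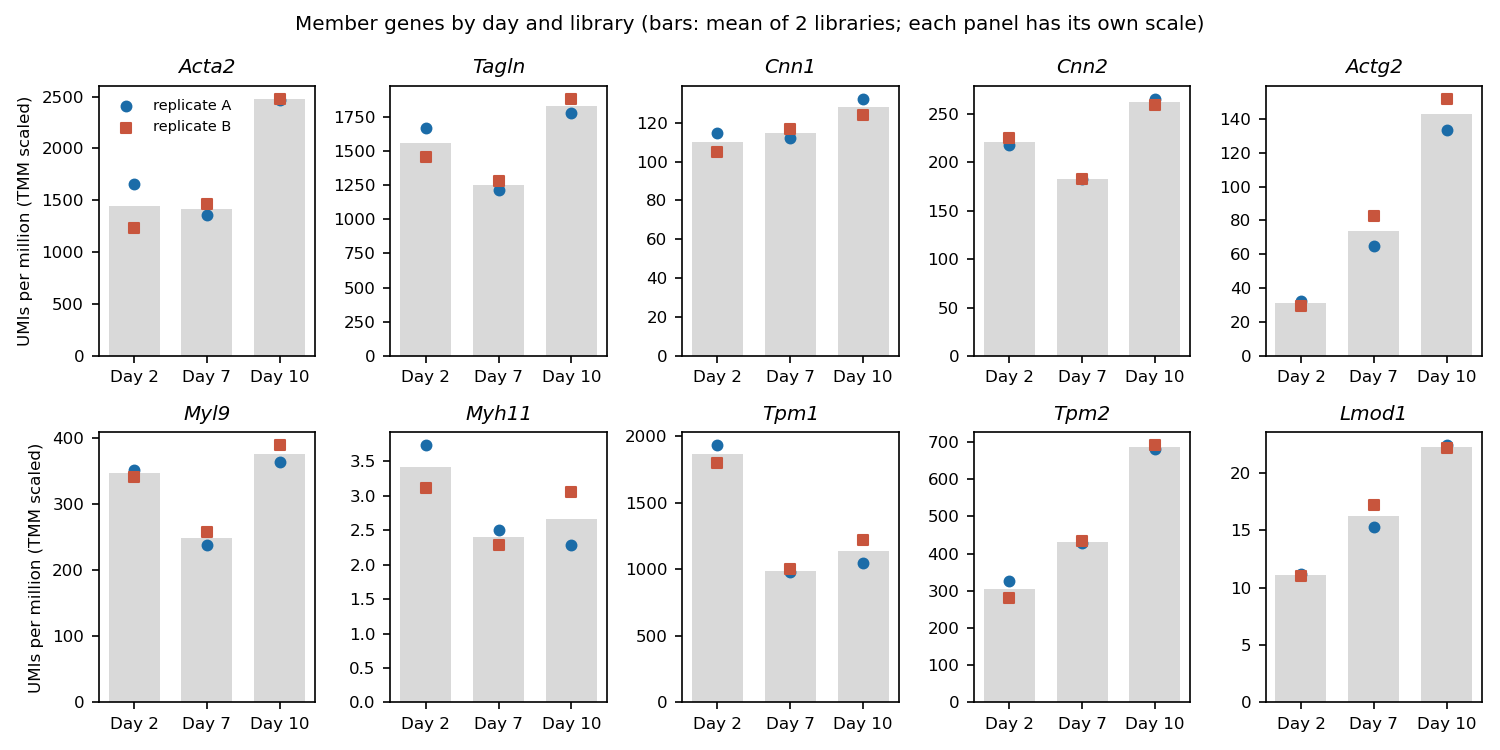
Level of each of the 10 genes in CPM (vertical axis, linear, from 0) at Day 2, Day 7 and Day 10; bars are the mean of 2 libraries and symbols are replicates A and B. *Actg2*, *Tpm2* and *Lmod1* climb at each step, *Tpm1* drops after Day 2, and most of the others dip or stay at Day 7 and are higher at Day 10.

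Of the actins, *Actg2* showed the widest change of the 10 genes. Its level was 32.6 and 29.3 CPM in Day 2 replicates A and B, then 64.9 and 82.8 CPM at Day 7, then 134 and 152 CPM at Day 10. Every later library lay above every earlier one. The rise came to a log2 fold change of 1.25 ± 0.115 (SE; adjusted p = 1.4e-05, edgeR) by Day 7 and of 2.20 ± 0.118 (adjusted p = 3.35e-07), a 4.61-fold difference, by Day 10. *Acta2*, the actin most used to mark smooth muscle and myofibroblasts, had 1656 and 1234 CPM at Day 2, then 1354 and 1469 CPM at Day 7, then 2467 and 2478 CPM at Day 10. The Day 2 pair spanned the Day 7 pair, and the log2 fold change of -0.03 ± 0.124 had an adjusted p of 0.819. *Acta2* then rose by 0.81 ± 0.125 on the log2 scale from Day 7 to Day 10 (adjusted p = 9.51e-04), which left it 1.71-fold above Day 2.

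The tropomyosins went opposite ways. *Tpm1* had 1931 and 1800 CPM at Day 2, then 977 and 1003 CPM at Day 7, then 1051 and 1219 CPM at Day 10. It fell by 0.91 ± 0.0849 on the log2 scale from Day 2 to Day 7 (adjusted p = 1.49e-05, edgeR), a 1.88-fold difference, and the later step of 0.20 had an adjusted p of 0.0801. *Tpm2* had 326 and 282 CPM at Day 2, then 428 and 435 CPM at Day 7, then 680 and 691 CPM at Day 10. Its libraries were ordered by day with no overlap, and it was 2.26-fold higher at Day 10 than at Day 2 (adjusted p = 1.02e-06). *Tpm2* is also a sarcomere gene, and skeletal muscle cells were present at Day 2. Without the skeletal muscle and macrophage cells, the direction and the call of both genes stood in all 3 comparisons.

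Among the proteins that sit on the thin filament, *Tagln* and *Cnn2* dipped and recovered. *Tagln*, transgelin, had 1665 and 1454 CPM at Day 2, then 1213 and 1281 CPM at Day 7, then 1779 and 1881 CPM at Day 10. It fell by 0.32 ± 0.0827 on the log2 scale (adjusted p = 0.00717, edgeR) and rose by 0.55 ± 0.0829 (adjusted p = 8.21e-04). Its difference between Day 10 and Day 2, 0.23 ± 0.0827 with an adjusted p of 0.03, was lost when any library other than Day 2 replicate A was left out, with log2 fold changes of 0.14 to 0.28 in those fits. *Cnn2*, the calponin also found outside muscle, had 217 and 225 CPM, then 183 and 183 CPM, then 266 and 259 CPM. The Day 7 libraries were lowest and the Day 10 libraries highest, and both steps passed the test (adjusted p = 0.00128 and 1.13e-04). *Cnn1*, the smooth muscle calponin, moved least, from 115 and 105 CPM through 112 and 117 CPM to 132 and 124 CPM. Neither single step passed (adjusted p = 0.408 and 0.0522), and the whole span did, with a log2 fold change of 0.22 ± 0.0611 (adjusted p = 0.00903).

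The myosin chains were also lower at Day 7 than at Day 2, and only *Myl9* passed the test for a later rise. *Myl9*, the regulatory light chain, had 352 and 341 CPM at Day 2, then 238 and 258 CPM at Day 7, then 364 and 389 CPM at Day 10. It fell by 0.48 ± 0.0643 on the log2 scale and rose by 0.60 ± 0.0644 (adjusted p = 1.55e-04 and 1.56e-04, edgeR). *Myh11*, the smooth muscle heavy chain, was close to absent, with 863 and 633 UMIs in whole Day 2 libraries, 489 and 426 UMIs at Day 7, and 558 and 678 UMIs at Day 10. In CPM these are 3.73 and 3.11, then 2.50 and 2.29, then 2.28 and 3.05. The Day 7 libraries lay below the Day 2 libraries (log2 fold change of -0.51 ± 0.15, adjusted p = 0.0136). The difference of Day 10 from Day 2, -0.36 with an adjusted p of 0.0495, was the narrowest call made, and it was lost without Day 2 replicate A, Day 7 replicate A or B, or Day 10 replicate A, with log2 fold changes of -0.35 to -0.15 in those fits. *Lmod1*, which is close to restricted to smooth muscle, was low as well and climbed evenly, from 11.2 and 11.1 CPM through 15.3 and 17.2 CPM to 22.4 and 22.2 CPM. Its 2.01-fold difference between Day 10 and Day 2 had an adjusted p of 9.27e-07.

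**Figure D2:**
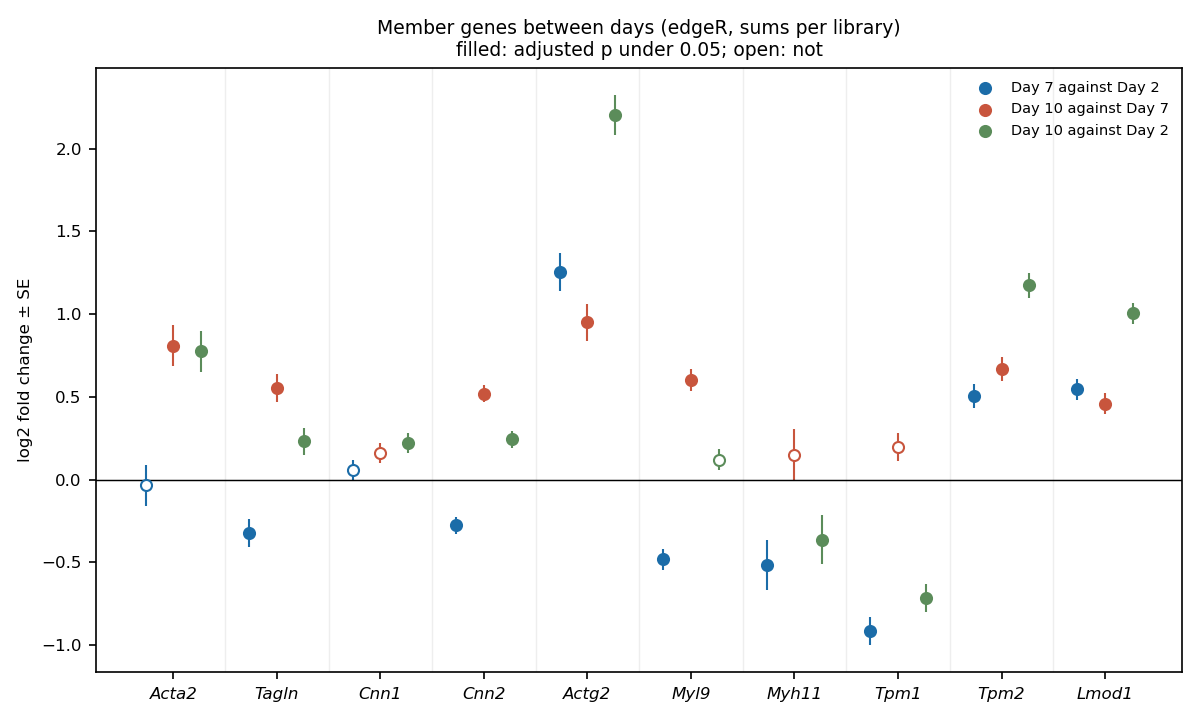
Log2 fold change (vertical axis) of each of the 10 genes (horizontal axis) in the 3 comparisons of days, with bars of ± 1 SE; filled symbols passed the test at an adjusted p under 0.05 and open ones did not. *Actg2*, *Tpm2* and *Lmod1* lie above 0 in every comparison, and *Tpm1* lies below 0 in both comparisons with Day 2.

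Markers of cell types moved over the same days. Cells with at least 4 of 7 cartilage markers made up 35.2% and 18.1% of the cells at Day 2, then 75.1% and 71.6% at Day 7, then 58.6% and 56.8% at Day 10, and 8 of 9 cartilage genes rose from Day 2 to Day 7. The shares were not matched for depth, and the Day 2 libraries had medians of 18587 and 3871 UMIs per cell. The part of cartilage cells in the dip at Day 7 was not tested. In cells outside all 4 marker gates, *Acta2* had 2521 and 1846 CPM at Day 2, then 2821 and 2860 at Day 7, then 3867 and 3765 at Day 10. Of the 5 genes that fell to Day 7 in whole libraries, *Tagln* overlapped there, with 2623 and 2205 CPM at Day 2 and 2546 and 2586 CPM at Day 7. *Tpm1* was lower at Day 7, with 1427 and 1467 CPM against 2735 and 2513 CPM at Day 2, as was *Myl9*, with 411 and 419 CPM against 494 and 473 CPM. *Cnn2* (270 and 255 against 283 and 291 CPM) and *Myh11* (4.11 and 2.78 against 6.16 and 4.62 CPM) also had both Day 7 values below both Day 2 values. These ungated cells were shallow at Day 7, with medians of 1300.5 and 1881 UMIs per cell. Endothelial markers were near 0. Their list summed to 0.732 to 1.40 CPM in any library. *Cdh5*, a gene of that list, had 25 UMIs summed over the 6 libraries, whereas *Pecam1*, its first gene, had day means of 0.352 to 0.557 CPM. Of the vascular mural cell list, *Higd1b* had 0 UMIs, but the list summed to 110.3 and 108 CPM at Day 2, then 569 and 607 CPM at Day 7, then 463 and 465 CPM at Day 10, and 5 of its 9 tested genes rose and 2 fell to Day 7. The sum was carried by *Ndufa4l2*, *Cox4i2* and *Cspg4*, with means of 0.879, 19.8 and 27.7 CPM at Day 2 and 244, 147 and 136 CPM at Day 7, while *Notch3* fell from 15.5 to 4.53 CPM and *Mcam* from 10.2 to 8.58 CPM, and *Rgs5*, at 10.9 and 7.75 CPM, did not pass (adjusted p = 0.0646, edgeR). The part of mural cells in the day comparisons was not tested.

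The regulators moved in both directions. *Myocd*, which encodes myocardin, had 2.62 and 2.50 CPM at Day 2, then 0.859 and 0.829 CPM at Day 7, then 0.727 and 0.698 CPM at Day 10. It fell by 1.60 ± 0.117 on the log2 scale to Day 7 (adjusted p = 3.23e-06, edgeR), and both later days lay far below both Day 2 libraries. *Srf* fell by 0.29 and rose by 0.30 (adjusted p = 0.00567 and 0.008). *Mrtfa*, which encodes MRTF-A, had 8.35 and 8.42 CPM at Day 2, then 9.32 and 9.09 CPM at Day 7, then 11.6 and 10.5 CPM at Day 10. Its libraries did not overlap between days, the first step had an adjusted p of 0.0923, and the later step of 0.27 passed (adjusted p = 0.00843, edgeR). Across the SRF cofactor list, 2 of 4 genes fell to Day 7 and 0 rose by edgeR, at an unadjusted p under 0.05 or by DESeq2, and from Day 7 to Day 10 2 rose and 1 fell. Of 14 late smooth muscle genes, such as smoothelin (*Smtn*), desmin (*Des*) and the potassium channel subunit *Kcnmb1*, 7 rose and 6 fell to Day 7, with *Kcnmb1* up by 2.07 and *Smtn* by 0.92 and *Synpo2* at -1.37. Of 12 non-muscle counterparts, such as β-actin (*Actb*) and *Tpm4*, 1 rose and 9 fell to Day 7, then 8 rose to Day 10, with 0 called lower by edgeR against 1 lower at an unadjusted p under 0.05 and 1 by DESeq2. Of 13 TGF-β and myofibroblast genes, 12 rose to Day 7, among them *Tgfb1* by 1.05 and *Postn* by 3.62, and *Tgfb2* fell by 0.45. Of 15 actin and focal adhesion genes, 5 rose and 6 fell to Day 7, and 10 rose and 1 fell to Day 10. The counts to Day 7 stand beside 35.7% of all genes higher and 34.6% lower, and those from Day 7 to Day 10 beside 26.3% and 25.9%.

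Within cells thinned to 3000 UMIs, the 10 genes were positively related in every pair and every library. Pearson's r was taken across cells on log(1 + UMIs), with each cell thinned to 3000 UMIs and shallower cells left out, which kept 8802 and 9653 cells at Day 2, then 9328 and 9439 at Day 7, then 9563 and 8861 at Day 10. Cells of a library share its preparation and its mixture of cell types, so r is a description with no test. The mean r over the 45 pairs was 0.275 and 0.224 in Day 2 replicates A and B, then 0.310 and 0.328 at Day 7, then 0.321 and 0.310 at Day 10. The order of days depended on the measure. With Spearman's rho Day 2 replicate A, at 0.2665, lay above the Day 7 libraries, at 0.246 and 0.2525. *Acta2* and *Tagln* were the closest pair, with a mean r of 0.770 and a range of 0.706 to 0.796 over the 6 libraries. Next came *Acta2* with *Tpm2* at 0.581, *Tagln* with *Myl9* at 0.578 and *Acta2* with *Myl9* at 0.555. The lowest pair was *Cnn2* with *Myh11* at 0.0559, and pairs with *Myh11* were low throughout, where its counts are sparse. In cells thinned to 1000 UMIs, the lowest r of a pair in Day 2 replicate B was -0.00305.

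**Figure D3:**
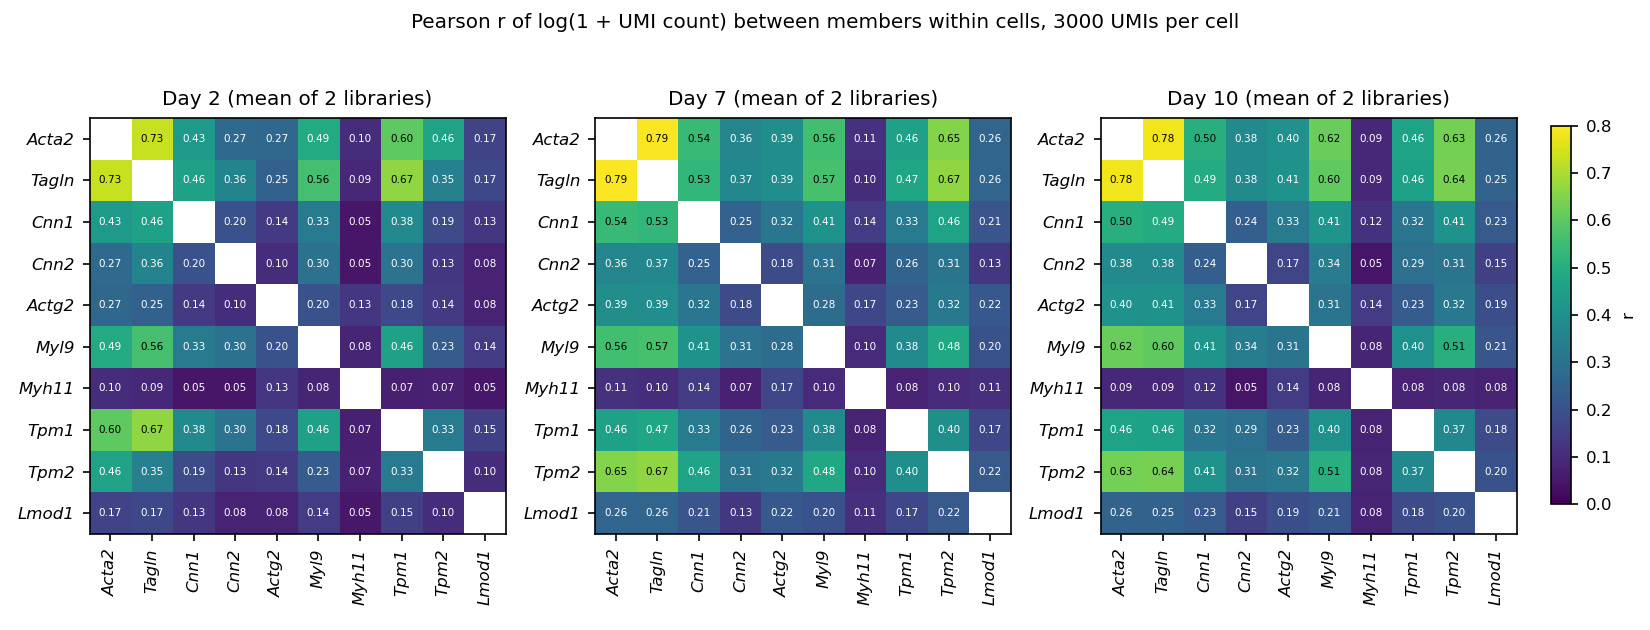
Pearson's r within cells for each pair of the 10 genes, in 1 panel per day, as the mean of 2 libraries of cells thinned to 3000 UMIs; the colour scale runs from 0 (dark) to 0.8 (bright). *Acta2* with *Tagln* is the brightest square of each panel, *Tpm2* brightens and *Tpm1* darkens against both after Day 2, and the *Myh11* squares stay dark.

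The tropomyosins exchanged places with time. The r of *Acta2* with *Tpm1* was 0.615 and 0.586 at Day 2, and 0.449 to 0.477 in the 4 later libraries. The r of *Acta2* with *Tpm2* was 0.504 and 0.415 at Day 2, and 0.622 to 0.659 in the later libraries. At Day 2 *Tpm1* was the closer partner of *Acta2*, and at Day 7 and Day 10 *Tpm2* was, in every library. Skeletal muscle cells also make *Tpm2*, for their sarcomeres. Without them the r of *Acta2* with *Tpm2* at Day 2 was 0.491 and 0.412, while that of *Tagln* with *Tpm2* went from 0.377 and 0.321 to 0.462 and 0.383.

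Set against all genes, the members were close to their own mean. Each gene was correlated with the mean of the members, leaving itself out where it was one, and 8036 other genes with at least 10 CPM gave a median r of -5.2e-05 and a 95th percentile of 0.12. *Tagln* reached 0.806 and *Acta2* 0.791, followed by *Myl9* at 0.619, *Tpm2* at 0.593 and *Tpm1* at 0.570. *Cnn1* had 0.535, *Cnn2* 0.396, *Actg2* 0.376, *Lmod1* 0.261 and *Myh11* 0.126. The non-members most like the mean were *Tmsb4x* (0.666) and *Tmsb10* (0.503), which bind monomeric actin, the cytoplasmic actins *Actb* (0.632) and *Actg1* (0.569), and *S100a6* (0.618), *Lgals1* (0.604) and vimentin (*Vim*, 0.601). The essential light chain *Myl6* (0.551), the actin-severing *Dstn* (0.492) and caldesmon (*Cald1*, 0.479) completed the first 10. These non-members had means of 519 to 4476 CPM, whereas *Myh11*, at 2.88 CPM, lay under the limit of 10 CPM set for the other genes. Genes of low level have sparse counts, and the part of level in this order was not tested. At the other end stood cartilage collagens, with *Col2a1* at -0.454, *Col9a1* at -0.431 and *Col11a1* at -0.408.

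The counts of the 10 genes were concentrated in few cells, more so at Day 7. The 10% of cells with most member UMIs held 39.98% and 31.3% of them in Day 2 replicates A and B, then 53.9% and 55.9% at Day 7, then 47.5% and 45.3% at Day 10, in cells of equal depth. The median cell had 7 and 13 member UMIs of 3000 at Day 2, then 4 and 3 at Day 7, then 6 and 7 at Day 10, whereas the median cell of those top 10% had 42 to 60. At least 5 of the 10 genes were seen in 31.1% and 44.5% of the thinned cells at Day 2, then 18.9% and 17.4% at Day 7, then 33.9% and 34.7% at Day 10. The Day 7 libraries were lowest in that share and highest in concentration, apart from the other 4 libraries in both, whereas the Day 2 libraries spanned those of Day 10 in the share. In cells thinned to 1000 UMIs the concentration no longer separated Day 7, at 48.1% and 49.0%, from Day 10, at 48.3% and 46.6%.

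The share of cells with a UMI differed widely between genes. *Tpm1* was seen in 86.0% and 91.3% of cells thinned to 3000 UMIs at Day 2, then 74.1% and 72.0% at Day 7, then 78.3% and 81.7% at Day 10. *Acta2* was seen in 45.7% and 61.7%, then 44.2% and 41.5%, then 64.7% and 65.8%, and *Tpm2* in 37.4% and 44.96%, then 36.4% and 34.1%, then 55.5% and 55.9%. *Actg2* was seen in 4.66% to 8.86% of cells, *Lmod1* in 2.33% to 4.04% and *Myh11* in 0.293% to 0.684%. Droplets also hold free RNA, and whether macrophages make any of these genes themselves was not tested. The same shares in macrophage-gated cells at the same depth are set beside them as a background. There *Acta2* was seen in 20 of 77 and 25 of 115 cells at Day 10, 26.0% (exact binomial 95% interval of 16.6% to 37.2%) and 21.7% (14.6% to 30.4%), *Tpm1* in 26.0% and 33.9%, and *Lmod1* in 0 of 77 and 0 of 115 cells, with upper limits of 4.68% and 3.16%. At Day 2 there were 21 and 12 macrophage-gated cells, and their intervals held the shares of *Acta2* over all cells in both libraries (11.3% to 52.2% and 15.2% to 72.3%). At Day 7, with 4 and 18 such cells, the interval held that of replicate A. The Day 10 shares of *Acta2*, *Tpm1*, *Tpm2* and *Tagln* over all cells were above those intervals in both libraries, as were those of *Cnn2* and *Myl9*. Those of *Cnn1*, *Actg2* and *Lmod1* were above them in 1 library of 2, with *Cnn1* and *Lmod1* within the interval in replicate A (15.0% and 4.04% of all cells) and *Actg2* in replicate B (8.86%). For *Myh11*, with 1 of 77 and 1 of 115 macrophage-gated cells, no share above background could be shown. The intervals cover counting error only.

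Cells with a UMI of *Myh11* were rich in the other members. Such a UMI was found in 58 and 66 thinned cells at Day 2, then 38 and 31 at Day 7, then 28 and 47 at Day 10. In Day 2 replicate A these cells carried a mean of 15.0 *Acta2* UMIs against 3.70 in the cells without it, and in Day 10 replicate A 32.3 against 4.90. The other 4 libraries had 9.38 to 21.5 against 2.36 to 4.86. In every library the cells with *Myh11* had more *Acta2*, *Tagln* and *Tpm1*. An *Acta2* UMI was found in 83.9% to 93.6% of them, against 41.4% to 65.7% of the cells without *Myh11*.

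To see how steep this grouping was without reusing a gene, cells were ranked by the other 9 genes, within 10 classes of depth, and the level of the gene left out was compared between the top 10% and the rest. For *Acta2* the ratio was 3.95 and 4.25 at Day 2, then 7.92 and 7.26 at Day 7, then 6.03 and 5.95 at Day 10. For *Actg2* it was 5.74 and 5.56, then 12.2 and 12.7, then 11.4 and 13.1. For *Tpm2* it was 1.74 and 1.78, then 4.82 and 5.18, then 3.71 and 3.62. *Myh11* itself had ratios of 7.27 and 9.33 at Day 2 and of 32.2 to 47.1 later. For all 10 genes both Day 2 ratios were below all 4 later ones. The broadly expressed *Cnn2* and *Tpm1* had ratios of 2.00 to 3.03 and 2.53 to 3.27 over the 6 libraries, above those of *Tpm2* at Day 2. These ratios are descriptions, since cells of a library are not replicates.

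Marker gates then placed the 10 genes among named cells. No gate uses a member. Cells with at least 4 of *Acan*, *Col9a1*, *Col9a3*, *Matn1*, *Matn4*, *Snorc* and *Mia* were compared with ungated cells, on sums per library with the library as a covariate. All 10 genes were lower in the cartilage cells, beside 14.6% of 15657 genes called lower and 15.9% called higher, with log2 fold changes from -0.60 ± 0.164 for *Cnn2* to -1.78 ± 0.272 for *Actg2* and adjusted p of 7.01e-06 to 0.0133 (edgeR). This gate favours deep cells, with a median of 10422 against 1300.5 UMIs in Day 7 replicate A. A comparison added after the data were seen takes the 25% of cells richest in the 7 markers within each of 10 classes of depth. There all 10 genes were again lower, beside 26.1% of 16512 genes, with log2 fold changes from -1.001 for *Cnn2* to -2.98 for *Actg2*. *Acta2* had 592 and 384 CPM in the cartilage-rich cells of Day 2, then 145 and 198 at Day 7, then 406 and 595 at Day 10, against 1644 to 2962 in the rest. The cartilage-rich cells lay below the rest in all 6 libraries, by 5.92-fold in the fit.

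**Figure D4:**
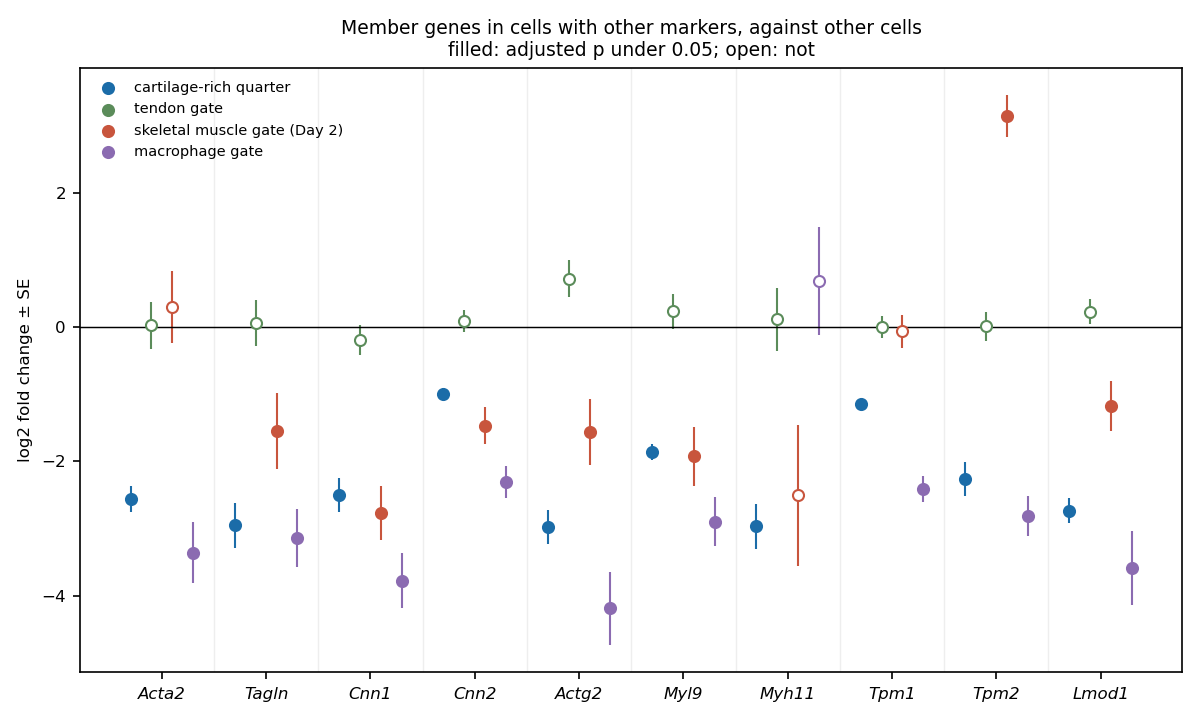
Log2 fold change (vertical axis, bars of ± 1 SE) of each of the 10 genes between gated and other cells, from fits over libraries; colours are the cartilage-rich 25% of cells, taken within 10 classes of depth, the tendon gate, the skeletal muscle gate at Day 2 and the macrophage gate, and filled symbols passed the test at an adjusted p under 0.05. All cartilage-rich values lie below 0, no tendon value is filled, and *Tpm2* in skeletal muscle is the filled point above 0.

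Skeletal muscle cells, gated on 3 of *Myod1*, *Myf5*, *Myog*, *Cdh15*, *Chrna1*, *Mymk* and *Tnnt1*, could be tested at Day 2 only, with 306 and 341 cells. *Tpm2* stood at 2752 and 2324 CPM in them against 308 and 289 in ungated cells, an 8.83-fold difference (log2 fold change of 3.14 ± 0.308, adjusted p = 4.38e-08, edgeR), where 19% of genes were called higher. *Acta2* and *Tpm1* had log2 fold changes of 0.29 and -0.06 and did not pass (adjusted p = 0.694 and 0.865), and *Acta2* had 2836 and 2234 CPM in the muscle cells. The other members called were lower, 6 of 10 beside 25.6% of genes, from -1.17 for *Lmod1* to -2.77 for *Cnn1*. Without Day 2 replicate B, 3 of those 6 calls were left. *Myh11*, at 9 and 4 UMIs, did not pass (adjusted p = 0.0583).

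Macrophages, gated on 3 of *Trem2*, *C1qc*, *C1qb*, *C1qa*, *Fcer1g* and *Tyrobp*, were taken as a background. Whether they make any of these genes themselves was not tested. Of the 10 genes, 9 were lower in them, beside 30.7% of all genes lower and 22.6% higher, from 4.95-fold for *Cnn2* to 18.3-fold for *Actg2*. The log2 fold change of *Actg2*, -4.19, was -5.23 without Day 10 replicate B and -3.70 without Day 10 replicate A, and 9 genes were lower in each of these fits. *Myh11* had a log2 fold change of 0.69 with an adjusted p of 0.492, and 36 of its UMIs in macrophage-gated cells came from Day 10 replicate B. Without that library the value was -1.32.

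In tendon cells, gated on 3 of *Tnmd*, *Scx*, *Mkx*, *Fmod*, *Thbs4* and *Kera*, none of the 10 genes passed over the 3 days (edgeR; smallest adjusted p = 0.138, for *Actg2*, at 0.72 ± 0.27), beside 1.44% of genes higher and 3.35% lower. At an unadjusted p under 0.05, 1 was higher and 0 lower, and DESeq2 called 0. *Actg2* passed at Day 2 and Day 7 in a fit with an effect for each day, added after the data were seen. In tendon and ungated cells it had 111 and 49.0 CPM in Day 2 replicate A, 94.6 and 42.6 in Day 2 replicate B, 276 and 180 in Day 7 replicate A, and 409 and 160 in Day 7 replicate B. At Day 10 it had 182 and 237 in replicate A and 220 and 240 in replicate B. The tendon gate favours deep cells, with medians of 28051.5 against 1300.5 UMIs in Day 7 replicate A and 32790 against 2863.5 in Day 2 replicate B, and the part of depth in these values was not tested. The tendon cells were above the ungated cells at Day 2 and Day 7, and at Day 10 the log2 fold change of -0.23 did not pass (adjusted p = 0.543, edgeR). The log2 fold change was 1.12 at Day 2 (adjusted p = 7.05e-04) and 1.03 at Day 7 (adjusted p = 0.00397), beside 3.42% and 2.2% of genes called higher. The difference of the effect between Day 10 and Day 2 was -1.35 ± 0.257 (adjusted p = 0.00853), and that between Day 10 and Day 7, -1.26, did not pass (adjusted p = 0.0693). *Lmod1* shifted likewise, with an effect of 0.48 at Day 2 (adjusted p = 0.0206) and a difference of -0.69 by Day 10 (adjusted p = 0.0327). No other member passed in tendon cells on any day in this fit, which held the macrophage effect the same on all days. Unscaled log2 ratios of tendon to ungated cells at Day 2 were 0.62 and 0.65 for *Myl9*, and 0.56 and 0.47 for *Lmod1*. The fitted value of *Myl9* was 0.16 ± 0.392 (adjusted p = 0.87, edgeR). *Acta2* had unscaled ratios of 0.01 and 0.10 and a fitted value of -0.60. The part of that setting in the fitted values was not tested.

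Cells rich in the 10 genes were last compared with the rest of their library in all other genes. They were the top 10% of each library by the mean of log(1 + UMIs per 10000) over the 10 genes, ranked within 10 classes of depth, which gave 940 to 1650 cells per library. They are a range of a score, and no cell type is assigned to them. Of all cells 7.72% to 13.6% lay within 10% of the limit, as did 33.7% to 53.2% of the rich cells. The members chose these cells and are not tested in them. Median depth was matched by the ranking, and the median mitochondrial share was 1.63% to 3.58% in these cells and 1.87% to 4.01% in the rest. Of 16208 genes, 549 (3.39%) were called higher and 1128 (6.96%) lower, at an adjusted p under 0.05 and a log2 fold change over 1 in size (edgeR, 6 libraries).

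Myocardin led the regulators. *Myocd* had 9.90 and 9.94 CPM in the rich cells of Day 2 against 2.17 and 2.02 in the rest, 2.99 and 2.83 against 0.551 and 0.533 at Day 7, and 2.79 and 2.01 against 0.445 and 0.511 at Day 10. It was higher in 6 of 6 libraries, by 5.22-fold (adjusted p = 2.71e-06, edgeR), while its level in the rich cells was lower at Day 7 and Day 10 than at Day 2. *Srf* and *Mrtfa* had log2 fold changes of 0.84 and 0.68, under the limit of size though higher in 6 of 6 libraries, and *Mrtfb* had -0.12.

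Adhesion and actin-bundling genes were higher in the same cells. Of 15, 11 were called higher, led by *Csrp1* at 2.18, vinculin (*Vcl*) at 1.59, *Pdlim7* at 1.45 and integrin α5 (*Itga5*) at 1.41. Of 12 non-muscle counterparts, 7 were called higher, led by *Tagln2* at 1.65, *Tpm4* at 1.31, *Actb* at 1.23 and *Myl6* at 1.13. Of 13 TGF-β and myofibroblast genes, 9 were called higher, among them *Tgfb3* at 1.82, *Thbs1* at 1.35 and periostin (*Postn*) at 1.30, and *Tgfb1* had 0.77. In the lists of SRF cofactors, adhesion, non-muscle, TGF-β and late smooth muscle genes, 0 genes were called lower by edgeR or by DESeq2, and 1 non-muscle gene was lower at an unadjusted p under 0.05.

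Of 14 late smooth muscle genes, 7 were called higher. *Kcnmb1* had the widest difference, 11.2-fold, on small counts of 13 to 99 UMIs in the rich cells of a library. *Ppp1r14a*, an inhibitor of myosin phosphatase, had 57.0 to 113 CPM against 15.6 to 26.8 in the rest (log2 fold change of 2.19, adjusted p = 2.06e-06, edgeR). *Synpo2* had 1.82 and was higher in 5 of 6 libraries, with a mean log2 ratio of 0.23 at Day 2, 2.42 at Day 7 and 2.67 at Day 10. *Smtn* had 0.40. *Des*, an intermediate filament of all muscle, changed side. It had 22.1 and 17.0 CPM in the rich cells of Day 2 against 35.1 and 26.3 in the rest, and 57.7 to 87.2 against 9.68 to 13.5 in the 4 later libraries. Its call (1.69, adjusted p = 0.039) was lost when any of the 4 later libraries was left out, and also when *Tpm1* and *Tpm2* were left out of the score.

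**Figure D5:**
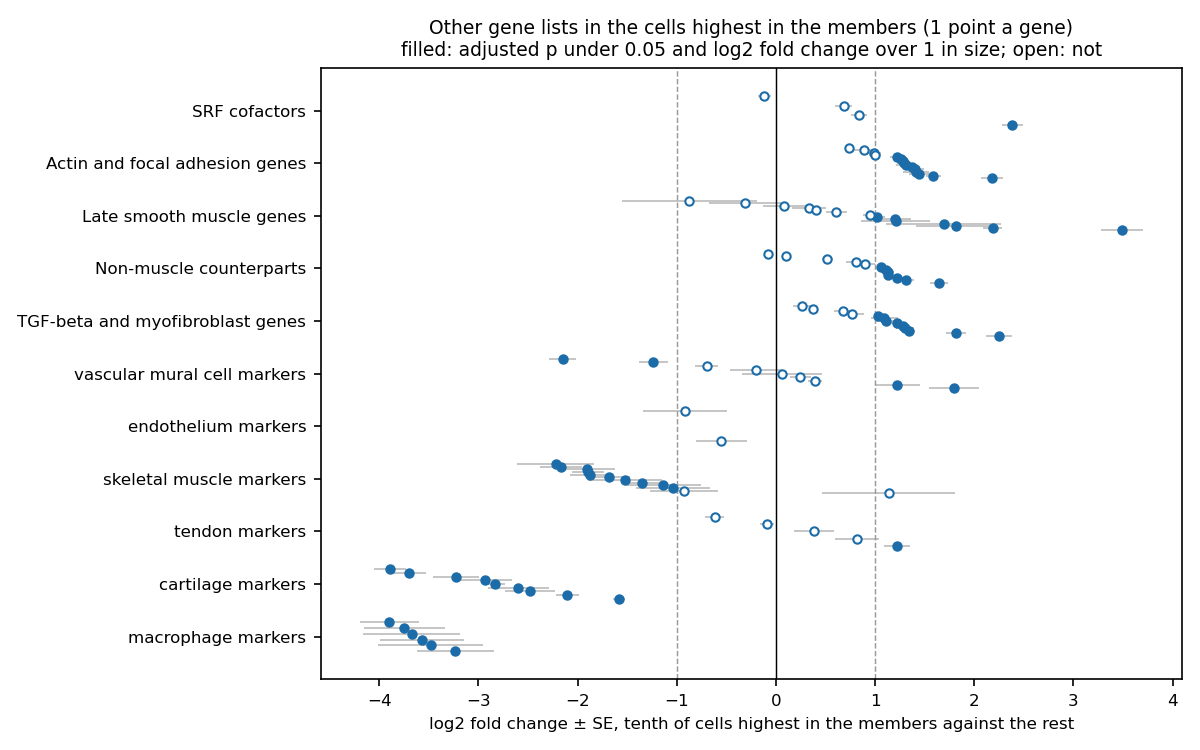
Log2 fold change (horizontal axis, bars of ± 1 SE) between the 10% of cells richest in the 10 genes and the rest, with 1 point for each tested gene of the lists; filled points were called at an adjusted p under 0.05 and a log2 fold change over 1 in size (dashed lines). The filled points of the SRF, adhesion, late smooth muscle, non-muscle and TGF-β lists lie right of 0, and those of the cartilage, skeletal muscle and macrophage lists lie left.

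Markers of other cells moved as follows in the rich cells. All 9 cartilage markers were lower, led by *Snorc* at -3.89 and *Matn1* at -3.70, and all 6 macrophage markers were lower, led by *Fcer1g* at -3.90. Of 12 skeletal muscle markers, 10 were lower, with *Myf5* at -2.22 and *Myod1* at -2.16. The direction of the summed list was not the same on all days. It summed to 265 and 148 CPM in the rich cells of Day 2 against 841 and 657 CPM in the rest, to 76.4 and 70.5 CPM against 157 and 55.9 CPM at Day 7, and to 94.6 and 98.3 CPM against 13.8 and 31.8 CPM at Day 10. Only *Acta1* of the 12 had a log2 fold change above 0 (1.14, adjusted p = 0.189, edgeR), and it was higher in 4 of 6 libraries. In whole Day 10 libraries *Acta1* had a mean of 17.8 CPM, where the list summed to 23.45 and 40.5 CPM. The part of *Acta1* in the sums of the rich cells was not tested. Of 9 mural cell markers, *Mcam* (1.80) and *Rgs5* (1.22) were higher and *Ndufa4l2* (-2.15) and *Cox4i2* (-1.24) lower, and the list summed to 114 to 309 CPM in the rich cells and 123 to 592 in the rest. Of 5 tendon markers tested, *Tnmd* was called higher (1.22), *Thbs4* had 0.82 and *Mkx* -0.62, and the list summed to 169 to 190.5 CPM in the rich cells and 113 to 201 CPM in the rest, with the rich cells lower in Day 2 replicate A and Day 10 replicate A. Of the endothelial genes, *Pecam1* had -0.55 (adjusted p = 0.106). Of 11 dissociation genes, *Fosb* (-1.58) and *Fos* (-1.38) were lower and *Hspa1b* (1.08) higher. The cartilage gate held 9.36% and 5.27% of the rich cells at Day 2, then 58.9% and 51.1% at Day 7, then 38.8% and 37.9% at Day 10. Of all cells it held 35.2% and 18.1%, then 75.1% and 71.6%, then 58.6% and 56.8%, so its share was lower among the rich cells in every library. Nearly every cell of Day 7 and Day 10 held a UMI of the cartilage list, 99.7% to 100% of them, so 1 such UMI does not set cells apart on those days. How far such UMIs fill the gate was not tested.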

How the data were processed

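Droplet libraries of 6 DID cultures, made with the 10x Genomics 3′ v3.1 kit, were analysed. The UMI counts per gene and barcode were deposited as the authors obtained them with Cell Ranger 6.1.2 and STAR on GRCm38, before Seurat 4.1.0 and with no normalization. The strand setting of the counting is not given in the sources used here. The quality limits stated by the study were applied to each library (at least 800 or 1000 UMIs, 200 to 7500 genes, and at most 25% to 40% mitochondrial and 35% to 40% ribosomal UMIs).

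UMIs were summed per library, or per library and class of at least 10 cells, and tested with edgeR 4.0.16 (filterByExpr, TMM, quasi-likelihood test, R 4.3.3), with Benjamini-Hochberg adjustment over all genes tested. The unit is the culture, with n = 2 per day. The day fit had TMM factors of 0.927 to 1.14, a common biological coefficient of variation of 0.0689, and 3 residual and 5.48 prior degrees of freedom. Cells in more than 1 gate were left out of the gate comparisons. The cells of 3000 UMIs or more that entered correlations and shares left out 6.84% to 41.4% of a library. Correlations used Python 3.11.15, numpy 2.4.6 and scipy 1.17.1.

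The genes named are the 10 members, the 10 other genes most correlated with them within cells, and from each list up to 4 genes called between rich and other cells with the largest change, or its first gene. *Pcsk7*, *Gm48529*, *Cdh5*, *Higd1b*, *Mrtfa*, *Mrtfb*, *Tgfb2*, *Thbs4*, *Mkx*, *Cspg4*, *Notch3*, *Acta1* and the cartilage collagens were added outside this rule after their values were seen. The members and the lists were chosen with earlier results of these data known. The alternatives were DESeq2 1.42.0, other filters, other gates, other cell sets, the replicate letter as a block and each library left out. The day, gate and rich-cell fits were tried on simulated data with the same spread for all genes. The fit with a gate effect for each day was not. Promoter windows are those of RefSeq, and gene positions those of GENCODE vM21. The values of 1 gene that the naming rule selected are not reported here.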

Additional observations from a re-analysis of the deposited data

Results flagged for a closer look

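The effect of the cartilage gate on 4 of the 10 genes differed between days in a fit with an effect for each day (edgeR, sums per library and gate, 2 libraries per day, a fit added after the data were seen). All 10 genes were called lower in cartilage cells at Day 2, beside 14.2% of all genes. The count was 6 of 10 at Day 7, beside 18.5%, and 5 of 10 at Day 10, beside 14.7%. All 10 log2 fold changes were below 0 on each day, from -2.92 to -0.81 at Day 2, -1.935 to -0.66 at Day 7 and -1.33 to -0.37 at Day 10. The fit held the macrophage effect the same on all days, and the part of that setting in the counts was not tested. Unscaled log2 ratios of cartilage to ungated cells were below 0 for all 10 genes in every library. Among genes not called, they were -1.51 and -1.55 for *Tagln* at Day 7 and -0.87 and -0.85 for *Myl9* at Day 10. For *Lmod1* the log2 fold change was -2.11 at Day 2, -1.25 at Day 7 and -1.04 at Day 10, so that it differed from Day 2 by 0.854 at Day 7 (adjusted p = 8.04e-04) and by 1.07 at Day 10 (adjusted p = 3.6e-05). For *Myh11* the effect differed from that at Day 2 by 2.1 at Day 7 (adjusted p = 0.0135) and by 1.59 at Day 10 (adjusted p = 0.0372). The libraries of a day were apart for this gene, with log2 ratios of cartilage to ungated cells of -3.57 and -2.25 in Day 2 replicates A and B and of -0.58 and -2.18 at Day 10, so that Day 10 replicate B lay near Day 2 replicate B. For *Actg2* and *Acta2* the effect differed between Day 10 and Day 2, by 1.08 (adjusted p = 0.00748) and 1.95 (adjusted p = 0.0454). The unscaled log2 ratios of *Acta2* in single libraries were closer together than the fitted value, at -2.11 and -1.96 at Day 2 and -1.06 and -1.04 at Day 10. Of all genes, 9.17% and 9.87% had a higher effect at Day 7 and at Day 10 than at Day 2. The gate itself changed over these days, from 35.2% and 18.1% of the cells in Day 2 replicates A and B to between 56.8% and 75.1% in the later libraries, and its part in these differences was not tested.

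The effect of the tendon gate on *Actg2* differed between Day 10 and Day 2 by -1.35 on the log2 scale (adjusted p = 0.00853), and that on *Lmod1* by a difference of -0.685 (adjusted p = 0.0327), where 1.08% of all genes were called lower. There were 306 and 311 tendon cells at Day 2, then 86 and 112 at Day 7, then 499 and 456 at Day 10.

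*Des* lay on opposite sides in the cells rich in the 10 genes, with a mean log2 ratio to the other cells of -0.649 in the 2 libraries of Day 2, 2.38 at Day 7 and 2.82 at Day 10. Both libraries of each day fell on the same side, and the difference between days was not tested. Skeletal muscle markers, which mark cells that also make desmin, summed to 697 and 528 CPM in the Day 2 libraries and 23.45 to 159 CPM later, and their part in this was not tested.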

How the results depend on the processing

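Of the summary results, 167 recomputed values kept their direction and their side of the threshold, or stayed within 1.5 times for a count, whereas 9 counts fell by more and 5 mean values moved. Of the single-gene values, 1134 did so, 34 lost a call, 17 gained one and 26 changed sign, and the cause was not tested. With all barcodes, the number of members lower at Day 7 than at Day 2 went from 5 to 3, and lower at Day 10 than at Day 2 from 2 to 1. The latter was also 1 with only the 4 libraries compared, and 1 to 2 with a library left out, while the number higher went from 7 to between 5 and 7. The number lower in skeletal muscle cells went from 6 to between 3 and 7 with a library left out, where the lone Day 2 library is assumed to vary like the others.

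Same-lettered libraries showed no shared shift, since their deviations had r of -0.0164, -0.0574 and -0.00765. Whether the letters pair cultures by preparation is not given in the sources used here, and r cannot tell. With the letter as a replicate block, 1 member was lower at Day 10 than at Day 2, in place of 2, and only the call of *Myh11* (-0.3645) was lost among the members in the day comparisons.

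The mean correlation between members within cells, over 6 libraries, was 0.2947 and became 0.254 with Spearman's rho, 0.1715 with cells thinned to 1000 UMIs and 0.3416 with no thinning. The mean share of cells with a UMI of a member, 33.2%, was 20.6% and 49.5% with these last 2 choices.

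The changes of sign were among values that did not pass the test in the main fits. Between Day 7 and Day 2, *Acta2* was 0.1801 with all barcodes, 0.0081 without the muscle and macrophage gates and -0.2315 to 0.1997 with a library left out, and *Cnn1* -0.0042 to 0.1309. Between Day 10 and Day 7, *Myh11* was -0.0665 to 0.3502. In tendon cells, gates of 1 marker more gave -0.0385 for *Acta2*, -0.0966 for *Tpm2* and -0.0116 for *Lmod1*. No filter on low counts gave -0.0218 for *Tpm1* and -0.0068 for *Tpm2*, and DESeq2 gave -0.0051 for *Tpm1*. With a library left out, the tendon values were -0.0528 to 0.1008 for *Acta2*, -0.0243 to 0.1433 for *Tagln*, -0.2633 to 0.3741 for *Myh11*, -0.0518 to 0.0562 for *Tpm1* and -0.0585 to 0.0774 for *Tpm2*. In skeletal muscle cells, *Acta2* was -0.0804 to 0.5714, and *Tpm1* 0.2889 with 1 marker more. In macrophages *Myh11* was -1.3179 to 1.0678. At 426 to 863 UMIs a library, depth limits what can be said of *Myh11*.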
